A study of Danio rerio with 6 samples.

Results

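The minichromosome maintenance (MCM) genes were followed in juvenile zebrafish gonads with and without *eif4e1b*. The set holds 9 of the 32520 genes in the count tables: *mcm2*, *mcm3*, *mcm3l*, *mcm4*, *mcm5*, *mcm6*, *mcm6l*, *mcm7* and *mcm10*. They were chosen by their fold changes in the same 6 samples, in which *mcm3* and *mcm6* had been seen higher in mutant gonads while other S-phase genes were lower, and were then taken by gene symbol. The difference between genotypes is therefore given for them as a description, with fold changes and spread but without p-values.

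RNA-seq compared 3 samples of *eif4e1b* -/- gonads with 3 samples of *eif4e1b* +/+ gonads, each pooled from 3 gonads of juvenile fish. All 6 samples are labelled as female ovary and carry tg(ziwi:GFP), a transgene that marks germ cells under the promoter of *piwil1* (ziwi), and fish were picked for strong fluorescence in the gonad. The study reports that strongly fluorescent gonads of homozygous mutant juveniles were either ovaries or gonads with differentiating sperm. It takes the latter as most likely ovaries turning into testes, and the labels do not tell the 2 kinds apart. Homozygous mutants carry a CRISPR/Cas9 deletion in the third exon of *eif4e1b*, made as different alleles whose use here the labels do not specify, and the controls were wild-type siblings. Nothing in the labels ties a replicate number to a shared clutch or day.

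MCM2, MCM3, MCM4, MCM5, MCM6 and MCM7 form a ring-shaped helicase that is loaded onto replication origins before S phase and unwinds DNA at the fork once it is activated. MCM10 is not part of the ring but is needed to activate it. In *Xenopus*, the egg carries maternal forms of Mcm3 and Mcm6 that are joined or replaced by zygotic forms later in embryogenesis. Zebrafish likewise has 2 genes for each of these subunits. RefSeq (assembly GRCz12tu) lists MCM3m and MCM6m as synonyms of *mcm3l* and *mcm6l*, and MCM3z and MCM6z as synonyms of *mcm3* and *mcm6*.

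The members of a pair are not neighbours in the genome. On GRCz11, *mcm3* (ENSDARG00000024204) lies on chromosome 20 from 34770197 to 34783743 on the plus strand, and *mcm3l* (ENSDARG00000037532) on the same chromosome from 6516523 to 6532462 on the minus strand. For the other pair, *mcm6* (ENSDARG00000057683) lies on chromosome 6 from 12968101 to 12985390 on the plus strand, and *mcm6l* (ENSDARG00000033231) on chromosome 2 from 50199738 to 50225495 on the minus strand. The remaining ring genes *mcm2*, *mcm4*, *mcm5* and *mcm7* are on chromosomes 22, 24, 3 and 14.

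Total counts ranged from 5539470 to 8233080 in mutant samples and from 11771342 to 13362230 in wild-type samples. The targeted gene *eif4e1b* had 55, 9 and 24 counts in mutant replicates 1, 2 and 3, against 1391, 1116 and 1386 in wild-type replicates 1, 2 and 3. The samples also differed in markers of the labelled tissue. Levels are given as CPM, counts relative to library size, after scaling with TMM factors (TMM-CPM). A list of 19 oocyte transcripts summed to 57.9 to 478 TMM-CPM in mutant samples, against 13066 to 16948 TMM-CPM in wild-type samples, and all 19 genes were called lower, although none was at 0 in all mutant samples. Transcripts of 9 genes used by germ cells of either sex overlapped in their sum. It was 1687 to 3818 TMM-CPM in mutant and 2156 to 3030 TMM-CPM in wild-type samples. This list includes *piwil1*, whose promoter drives the transgene by which fish were picked, so the sum is not independent of that choice. Single genes of this list differed, with 1 called higher and 3 called lower, where 37.5% and 32.0% of all genes tested were. Exocrine pancreas transcripts (13 genes) reached 28449 to 49179 TMM-CPM in mutant samples, against 68.6 to 272 in wild-type samples. In whole gonads, fewer cells of a type and less RNA per cell cannot be told apart.

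Both *mcm3* and *mcm6* were higher in mutant gonads, whereas the other 7 genes, their paralogs *mcm3l* and *mcm6l* among them, were lower. In none of the 9 genes did the ranges of the genotypes overlap. With an adjusted p-value under 0.05 from edgeR's quasi-likelihood test, 2 members were called higher, where 37.5% of all 20091 genes tested were, and 7 were called lower, where 32.0% were (69.5% in either direction). Groups without overlap were also common over all genes, with 39.8% of genes above and 35.4% below the wild-type range in all mutant samples. Since the rule used this contrast, nothing is read from these counts.

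**Figure D1:**
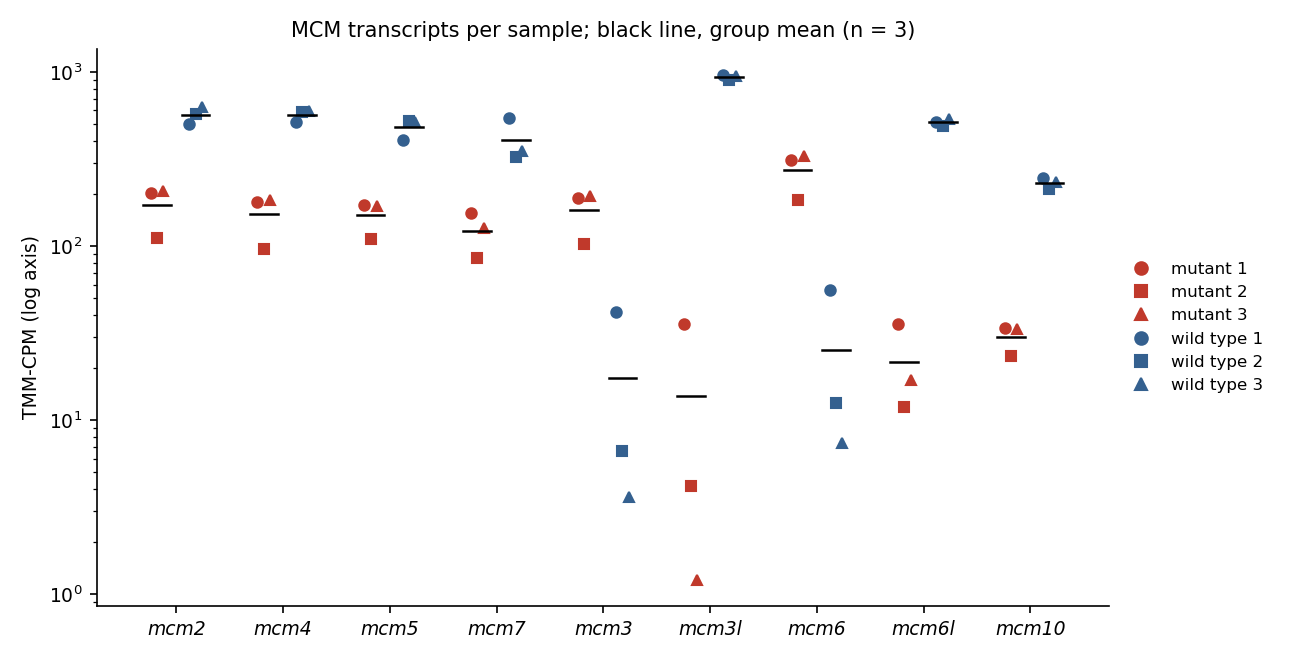
TMM-CPM (log axis) of the 9 MCM genes in each of the 6 samples, with mutant samples in red to the left of wild-type samples in blue, and black lines at the group means (n = 3 each). Mutant values lie above wild-type values for *mcm3* and *mcm6* only, and wild-type replicate 1 sits above the other wild-type samples for both of these genes.

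The ring genes with no paralog in the set, called single-copy here, had similar differences. For *mcm2*, mutant replicates 1, 2 and 3 had 202, 111 and 206 TMM-CPM, against 499, 572 and 625 TMM-CPM in wild-type replicates 1, 2 and 3. The means were 173 ± 53.8 TMM-CPM in mutant and 566 ± 63.4 TMM-CPM in wild-type gonads (SD, n = 3 each), a log2 fold change of -1.71 (standard error, SE, 0.32). Every mutant sample was below every wild-type sample, and mutant replicate 2 was the lowest.
The same order of samples was found for *mcm4*, with 178, 95.7 and 184 TMM-CPM in mutant replicates 1, 2 and 3, against 514, 591 and 597 TMM-CPM in wild-type replicates 1, 2 and 3. Its log2 fold change was -1.90 (SE 0.32). Transcripts of *mcm5* averaged 151 ± 35.0 TMM-CPM in mutant and 483 ± 66.3 TMM-CPM in wild-type gonads (SD, n = 3 each), a log2 fold change of -1.68 (SE 0.28).
For *mcm7*, mutant replicates had 154, 85.5 and 127 TMM-CPM, against 543, 325 and 351 TMM-CPM in wild-type replicates. Here wild-type replicate 1 was the highest sample, which it was not for *mcm2*, *mcm4* or *mcm5*. The log2 fold change of *mcm7* was -1.73 (SE 0.33), so the 4 single-copy ring genes spanned only -1.90 to -1.68.

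*mcm3l* was the most reduced of the 9 genes. Mutant replicate 1 held most of what was left of it. The gene had 292, 27 and 9 counts in mutant replicates 1, 2 and 3, against 10625, 9678 and 10996 counts in wild-type replicates 1, 2 and 3. On the normalized scale these were 35.8, 4.19 and 1.2 TMM-CPM in mutant samples, against 965, 892 and 951 TMM-CPM in wild-type samples. The wild-type samples differed from each other by 1.08-fold at most, and the mutant samples by 29.8-fold. The log2 fold change was -6.09 (SE 1.28), and 0.916% of all tested genes had a lower one. Without mutant replicate 1 it was -8.48.
Oocyte transcripts were also highest in that mutant sample, with 478 TMM-CPM over the list against 57.9 and 73.6 in mutant replicates 2 and 3. Their part in the value of *mcm3l* was not tested.

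*mcm3* ran in the opposite direction. Its counts were 1549, 659 and 1451 in mutant replicates 1, 2 and 3, against 461, 72 and 42 in wild-type replicates 1, 2 and 3. After normalization the mutant samples had 190, 102 and 194 TMM-CPM, against 41.9, 6.64 and 3.63 TMM-CPM in wild-type samples. The mutant samples stayed within 1.89-fold of each other, whereas wild-type replicate 1 was 11.5-fold above wild-type replicate 3. The log2 fold change was 3.22 (SE 0.92), and 87.6% of all tested genes had a lower one. The fold change was 4.94 without wild-type replicate 1 and 2.77 without wild-type replicate 2, where *mcm3* was no longer called.

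*mcm6* followed the course of *mcm3*. Mutant replicates 1, 2 and 3 had 313, 183 and 328 TMM-CPM, against 55.9, 12.5 and 7.35 TMM-CPM in wild-type replicates 1, 2 and 3. Again the mutant samples were close to each other and wild-type replicate 1 was the highest of its group, by 7.61-fold over the lowest. The log2 fold change was 3.44 (SE 0.80), and 90.2% of all tested genes had a lower one. Without wild-type replicate 1 the fold change of *mcm6* was 4.75.
Its paralog *mcm6l* had 35.8, 11.9 and 17.1 TMM-CPM in mutant samples, against 518, 488 and 537 TMM-CPM in wild-type samples. The groups lay far apart, and mutant replicate 1 was again the highest of the mutant samples. The log2 fold change was -4.57 (SE 0.47), and -5.18 without mutant replicate 1.

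*mcm10*, the activator outside the ring, was reduced more than the single-copy ring genes. It had 33.8, 23.3 and 33.2 TMM-CPM in mutant samples, against 245, 214 and 233 TMM-CPM in wild-type samples, and both groups were tight. Its log2 fold change of -2.94 had the smallest standard error of the 9 genes (0.23).

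Within each pair the gene that supplied most reads differed between genotypes. The share of *mcm3l* in the reads of *mcm3* and *mcm3l* together was 15.9%, 3.94% and 0.616% in mutant replicates 1, 2 and 3, against 95.8%, 99.3% and 99.6% in wild-type replicates 1, 2 and 3. These shares are of counts without correction for transcript length, which the tables do not hold, so only their difference between samples is read. Exact (Clopper-Pearson) 95% intervals ran from 14.2% to 17.6% for mutant replicate 1 and from 95.5% to 96.2% for wild-type replicate 1, and they cover counting error only. *mcm6l* made up 10.2%, 6.14% and 4.94% of the reads of its pair in mutant samples, against 90.2%, 97.5% and 98.6% in wild-type samples. The samples nearest to the other genotype were mutant replicate 1 and wild-type replicate 1 in both pairs.
How reads that match both members of a pair were counted is not stated. The least abundant member bounds what such reads could have added: *mcm3* took 0.380% of the reads of its pair in wild-type replicate 3, *mcm3l* took 0.616% in mutant replicate 3, *mcm6l* took 4.94% in mutant replicate 3, and *mcm6* took 1.35% in wild-type replicate 3.

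**Figure D2:**
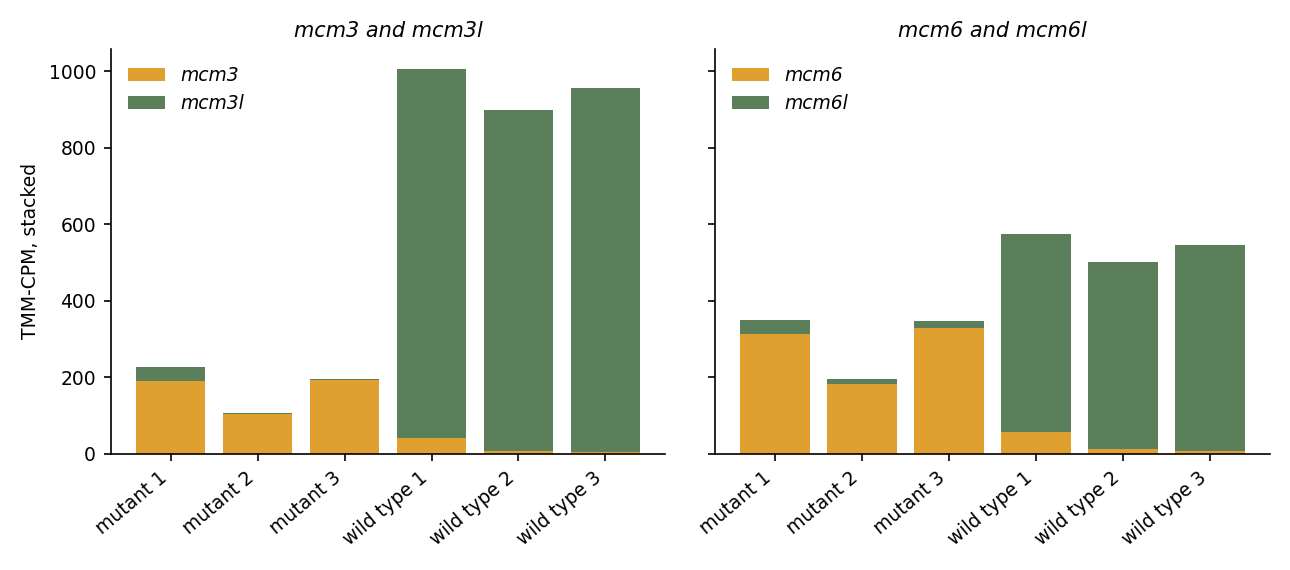
TMM-CPM of *mcm3* with *mcm3l* (left) and of *mcm6* with *mcm6l* (right), stacked for each of the 6 samples on a linear axis from 0. The paralog fills nearly the whole wild-type bar (90.2% to 99.6% of its counts) and little of the mutant bar (0.616% to 15.9%). With TMM factors the total is lower in mutant samples for both pairs.

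In mean TMM-CPM, *mcm3* and *mcm6* were higher by less than their paralogs were lower. These differences are not corrected for transcript length and depend on the scaling. Whether one gene made up for the other in transcript number was not tested. *mcm3* was 144 TMM-CPM higher and *mcm3l* 922 TMM-CPM lower in mutant gonads, so the first difference was 15.7% of the second. For the other pair, *mcm6* was 250 TMM-CPM higher and *mcm6l* 492 TMM-CPM lower, or 50.7%. The sum of *mcm3* and *mcm3l* was 176 ± 61.8 TMM-CPM in mutant and 953 ± 54.2 TMM-CPM in wild-type gonads (SD, n = 3 each), a log2 fold change of -2.44 (SE 0.36). The sum of *mcm6* and *mcm6l* was 349, 195 and 346 TMM-CPM in mutant samples, against 574, 500 and 544 TMM-CPM in wild-type samples. On this scale its groups did not overlap. As a part of total counts, however, mutant replicate 1 (2851 of 5539470) was not below wild-type replicate 1 (6316 of 13112073). The log2 fold change of this sum, -0.86 (SE 0.30), also depended on the scaling, with -0.17 under upper-quartile factors. This sum was called lower, a call kept in 8 alternative settings and lost in 8. Among the latter was each fit that left out 1 wild-type sample. The 9 genes together reached 727 to 1313 TMM-CPM in mutant samples and 3626 to 3822 TMM-CPM in wild-type samples. *mcm3l* and *mcm6l* supplied 1.45% to 5.45% of these reads in mutant samples and 38.0% to 39.1% in wild-type samples.

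Ratios of 2 genes within a sample do not depend on how samples are scaled, and in them the members fell into sets that moved together. The count ratio of *mcm3* to *mcm6* was 0.605, 0.559 and 0.589 in mutant replicates 1, 2 and 3, against 0.748, 0.529 and 0.494 in wild-type replicates 1, 2 and 3. The genotypes overlapped and the whole range was 1.51-fold, although each gene differed by about an order of magnitude between genotypes. *mcm3* relative to *mcm4* was 1.07, 1.07 and 1.05 in mutant samples, against 0.0815, 0.0112 and 0.00609 in wild-type samples. Among mutant samples the ratio of *mcm3* to the ring gene *mcm4* was therefore nearly constant, while among wild-type samples it was not. Mutant replicates 1 and 3 had similar levels of both genes, so the constancy rests mainly on mutant replicate 2, where both were lower.
The paralogs did not keep a fixed ratio to each other. *mcm3l* over *mcm6l* was 1.00, 0.351 and 0.0703 in mutant samples, against 1.86, 1.83 and 1.77 in wild-type samples. Wild-type samples were thus nearly constant, and mutant samples spread over more than an order of magnitude below them.

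Relative to *mcm4*, *mcm2* was at 1.14 ± 0.0177 in mutant and 0.996 ± 0.0454 in wild-type samples, and *mcm7* at 0.818 ± 0.109 in mutant and 0.732 ± 0.281 in wild-type samples (SD, n = 3 each). The *mcm7* ratio overlapped between genotypes, with wild-type replicate 1 at 1.06 against 0.551 and 0.588 in wild-type replicates 2 and 3. *mcm10* was at 0.205 ± 0.0336 of the *mcm4* count in mutant and 0.409 ± 0.0602 in wild-type samples (SD, n = 3 each), without overlap. Summed over the pair, *mcm3* with *mcm3l* was at 1.15 ± 0.107 times *mcm4* in mutant and 1.69 ± 0.234 times in wild-type samples, and *mcm6* with *mcm6l* at 1.96 ± 0.0759 times in mutant and 0.958 ± 0.141 times in wild-type samples (SD, n = 3 each). In read counts the 2 pairs thus shifted in opposite directions against *mcm4*, and neither ratio overlapped between genotypes. The member that supplied most reads differed between genotypes and transcript lengths were not used, so these shifts are not read as transcript numbers.

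**Figure D3:**
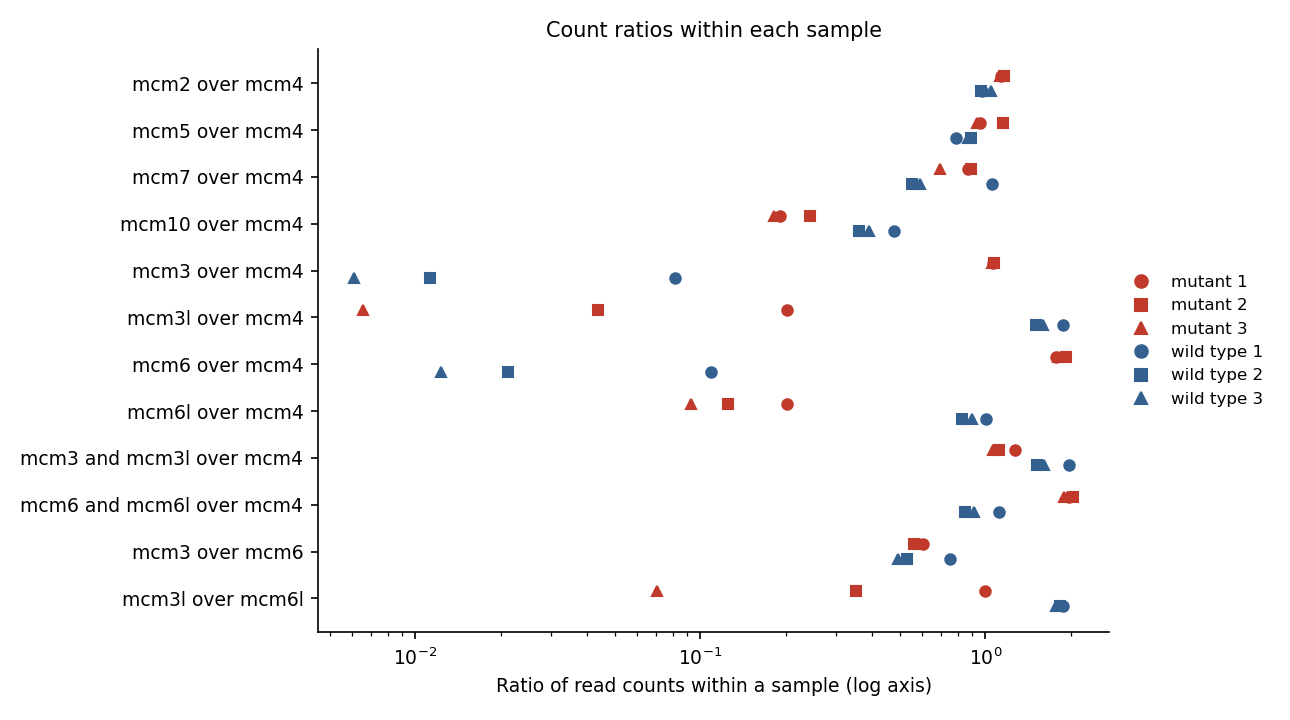
Ratio of the read counts of 2 genes, or of a pair sum and *mcm4*, within each sample (log axis, no length correction), mutant samples in red above wild-type samples in blue. The ratio of *mcm3* to *mcm6* stays between 0.494 and 0.748 in all 6 samples, while *mcm3* over *mcm4* runs from 0.00609 in wild-type replicate 3 to 1.07 in mutant samples.

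Wild-type replicate 1 stood apart for more than *mcm3* and *mcm6*. A list of 8 matched genes of testis somatic cells, some also used by ovarian somatic cells, summed to 1096 to 1717 TMM-CPM in mutant samples, against 24.1 to 300.0 TMM-CPM in wild-type samples, where replicate 1 was the highest. Of the 7 genes tested, 5 were called higher in mutant gonads, where 37.5% of all genes tested were. *hsd17b3* (log2 fold change 0.88) and *cyp17a2* (-0.35) were not called. The most abundant genes of the list were *gsdf* and *amh* (anti-Müllerian hormone). *gsdf* was at 654 to 1009 TMM-CPM in mutant samples and 205, 12.7 and 15.7 TMM-CPM in wild-type replicates 1, 2 and 3. *amh* was at 359 to 524 TMM-CPM in mutant samples and 56.9, 1.94 and 2.34 TMM-CPM in the same wild-type order. Meiotic prophase transcripts (10 genes, 4 of them called higher, a share near the 37.5% over all genes) summed to 223 to 979 TMM-CPM in mutant samples, against 337, 116 and 124 TMM-CPM in wild-type replicates 1, 2 and 3. Of 9 listed ovarian somatic genes only 4 were matched (*fshr*, *lhcgr*, *inha* and *hsd3b1*). All 4 were called higher, where 37.5% of all genes tested were. Not matched were *cyp19a1a*, *foxl2a*, *foxl2b*, *fsta* and *wnt4a*, so the matched genes are not read as a measure of ovarian somatic cells. The sum of the 4 matched genes was 69.0 to 117 TMM-CPM in mutant samples. It was 17.7, 8.57 and 6.32 TMM-CPM in wild-type replicates 1, 2 and 3. Wild-type replicate 1 was thus also the highest wild-type sample for this list. The same held for the lists of oocyte, germ cell, spermatid, muscle, skin, red blood cell and leukocyte genes. It did not hold for exocrine pancreas and liver, where wild-type replicate 3 was the highest. Skin sums were 1619 to 3177 TMM-CPM in mutant and 39.3 to 134 TMM-CPM in wild-type samples. Muscle (250 to 732 against 42.3 to 75.4 TMM-CPM), red blood cell and leukocyte sums also lay above the wild-type range in all mutant samples. Spermatid and germ cell sums overlapped, and oocyte sums were lower in mutant samples. Single spermatid genes differed, however. Of 9 tested, 5 were called higher and 1 lower, where 37.5% and 32.0% of all genes tested were. The part of any of these cells in the values of *mcm3* and *mcm6* was not tested. Liver transcripts (8 genes) were at 160689 TMM-CPM in mutant replicate 2, against 671 and 20744 TMM-CPM in mutant replicates 1 and 3 and 116 to 3545 TMM-CPM in wild-type samples. Mutant replicate 2 was also the lowest mutant sample for each of *mcm2*, *mcm3*, *mcm4*, *mcm5*, *mcm6*, *mcm7* and *mcm10*, and the part of liver RNA in this was not tested.

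Over the 6 samples, the log2 TMM-CPM of *mcm3* and *mcm6* had a Pearson correlation of 0.997, with 9 tested genes closer to *mcm3* than *mcm6* was and 24 closer to *mcm6* than *mcm3* was. For *mcm3l* and *mcm6l* the correlation was 0.971, with 501 genes closer to *mcm3l* and 2696 closer to *mcm6l*. *mcm2* and *mcm4* had one of 0.999, and *mcm3* and *mcm3l* one of -0.81. All such values rest on the same 6 libraries and largely on the difference between genotypes. Among genes with a symbol outside the set, those closest to *mcm3* were *ccdc36*, *ssbp4* and *twist1b* (r of 0.999 for each). Those closest to *mcm6* were *adgrd2*, *b2m* and *smarcc2* (0.999 for each). *b2m*, which encodes beta-2 microglobulin, had 143, 86.4 and 130 TMM-CPM in mutant samples, against 28.4, 9.03 and 5.62 TMM-CPM in wild-type samples. *ssbp4* varied within a small range, at 19.2 to 20.7 TMM-CPM in mutant samples and 14.2 to 17.6 TMM-CPM in wild-type samples. Of genes with a symbol, those closest to *mcm3l* were *si:dkey-88l16.3*, *LO018315.6* and *zgc:171776*. Those closest to *mcm6l* were *ids*, *gdf3* and *slc47a4* (r between 0.9996 and 0.9998 for both sets). For *mcm3*, *mcm6*, *mcm3l* and *mcm6l* alike, many other genes were nearly as close, so the order is not read. *gdf3* (Vg1), a maternally supplied TGF-beta ligand, had 9.43, 2.48 and 4.0 TMM-CPM in mutant samples, against 209, 215 and 248 TMM-CPM in wild-type samples.

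Genes more distantly tied to the ring did not share one direction. *mcm9*, whose protein works in recombination repair, had 41.4, 22.3 and 35.6 TMM-CPM in mutant samples, against 141, 170 and 167 TMM-CPM in wild-type samples. It was lower in mutant gonads, with a log2 fold change of -2.27 (SE 0.27, with 0.000749 as the adjusted p in edgeR's quasi-likelihood test). Its partner *mcm8* had 28.7, 14.7 and 40.6 TMM-CPM in mutant samples, against 19.98, 20.1 and 22.0 TMM-CPM in wild-type samples. These groups overlapped (log2 fold change 0.44, SE 0.36, with 0.305 as the adjusted p in the same edgeR test), and *mcm8* was called higher under upper-quartile factors (1.12) and without mutant replicate 2 (0.75).
*mcmdc2*, an MCM-domain gene of meiotic recombination in the mouse, had 75, 45 and 76 counts in mutant replicates, against 53, 5 and 17 counts in wild-type replicates. It was higher at 8.77 ± 1.62 TMM-CPM in mutant and 2.25 ± 2.28 TMM-CPM in wild-type gonads (SD, n = 3 each), a log2 fold change of 1.96 (SE 0.74, with 0.0494 as the adjusted p in the same edgeR test). That call was lost when any sample but wild-type replicate 1 was left out. *mcmbp*, which encodes a protein that binds MCM subunits, was lower at 65.5 ± 5.86 TMM-CPM in mutant and 170 ± 13.7 TMM-CPM in wild-type gonads (SD, n = 3 each), a log2 fold change of -1.37 (SE 0.18, with 0.000954 as the adjusted p in the same edgeR test). With library totals alone it was not called (-0.92). Lower S-phase genes were part of what chose the set, so the p-values of *mcm9* and *mcmbp* are given as description only.

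The genes that load and activate the ring were mostly lower. Over all genes tested, 32.0% were called lower and 37.5% higher. Of 10 genes of origin licensing, 8 were called lower, *mcmbp* among them, and 0 higher. Geminin (*gmnn*), which blocks licensing, averaged 53.2 ± 29.2 TMM-CPM in mutant and 1900.2 ± 108 TMM-CPM in wild-type gonads (SD, n = 3 each), a log2 fold change of -5.16 (SE 0.52), and the loader *cdt1* had one of -3.87 (SE 0.37). The origin recognition genes *orc4* (-0.58, SE 0.40) and *orc5* (0.18, SE 0.31) were not called. Among 13 matched genes of helicase activation, 11 were called lower and 0 higher, led by *cdc45* (-3.19), a partner of the ring at the fork, and *mtbp* (-3.02), which acts in origin firing. *gins4* (0.61, SE 0.29) and the kinase subunit gene *dbf4* (0.51, SE 0.39) were not called. *gins4* codes for a subunit of the GINS complex, whose other genes *gins1*, *gins2* and *gins3* were lower (-1.10, -1.95 and -2.60).
Of 32 genes that act at the fork or in nucleotide supply, 28 were called lower and 0 higher, with the ribonucleotide reductase genes *rrm2* (-4.28) and *rrm1* (-3.64) at the low end and *pole4* (-0.33) and *rfc5* (-0.29), neither of them called, at the high end. The sliding clamp gene *pcna* averaged 162 ± 37.5 TMM-CPM in mutant and 654 ± 22.7 TMM-CPM in wild-type gonads (SD, n = 3 each), with -2.01 ± 0.27 (SE) as its log2 fold change.

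Taking these 3 lists together, 47 of 55 genes were called lower, where 32.0% of all genes were, and 0 higher, where 37.5% were, with 0 higher also at an unadjusted p-value under 0.05, with DESeq2's Wald test and with limma-voom. Upper-quartile factors gave 3 higher and 37 lower genes, and library totals alone gave 0 and 28. Their median log2 fold change was -1.74, against 0.23 over all genes tested, and the 4 single-copy ring genes had a median of -1.72. No gene of the 3 lists was called higher as *mcm3* and *mcm6* were, but lower S-phase genes were part of what chose the set. Of 18 genes of mitosis, 17 were called lower and 0 higher (0 also at an unadjusted p-value under 0.05, with DESeq2 and with limma-voom), with a median of -2.00. For this list upper-quartile factors gave 1 higher and 14 lower genes, and library totals alone gave 0 higher and 8 lower. The range ran from *ccnb2* (-6.03) to *cenpf* (1.17, SE 0.62), a kinetochore gene that was not called.

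**Figure D4:**
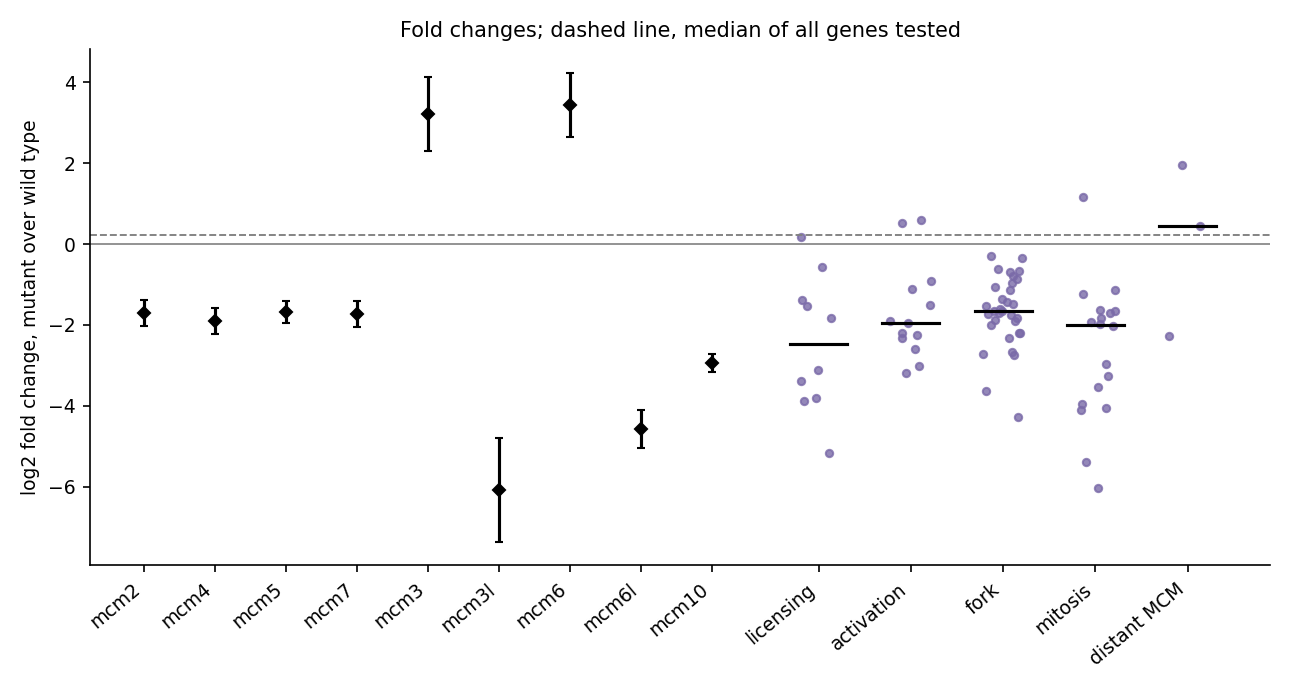
Log2 fold change of mutant over wild-type gonads for the 9 MCM genes (black diamonds with standard errors) and for genes of 5 lists (purple points, black line at the median of each list), with the median of all genes tested at 0.23 as a dashed line. *mcm3* (3.22) and *mcm6* (3.44) lie above every gene of the lists. The single-copy ring genes (-1.90 to -1.68) lie among the genes of the licensing, activation, fork and mitosis lists. The contrast of *mcm3* and *mcm6* with other S-phase genes was what chose the set, so it is shown as description only.

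The direction of each of the 9 genes was the same under every scaling, test and filter tried and without any single sample. Scaling shifted the fold changes over all genes, though not by an equal amount for each gene. The median log2 fold change over all genes was 0.23 with TMM factors and 0.18 with DESeq2 size factors. It was 0.65 with library totals and 0.92 with upper-quartile factors. Higher genes accordingly made up 53.9%, 53.1%, 68.8% and 71.1% of all called genes. *mcm3* ranged from 2.68 to 4.94 and *mcm6* from 2.95 to 4.75 over the fits that left out samples, and *mcm3l* from -8.48 to -5.59 and *mcm6l* from -5.18 to -4.24. The single-copy ring genes were nearer to 0 under upper-quartile factors, at -1.02 for *mcm2*, -1.20 for *mcm4*, -0.99 for *mcm5* and -1.04 for *mcm7*.

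**Figure D5:**
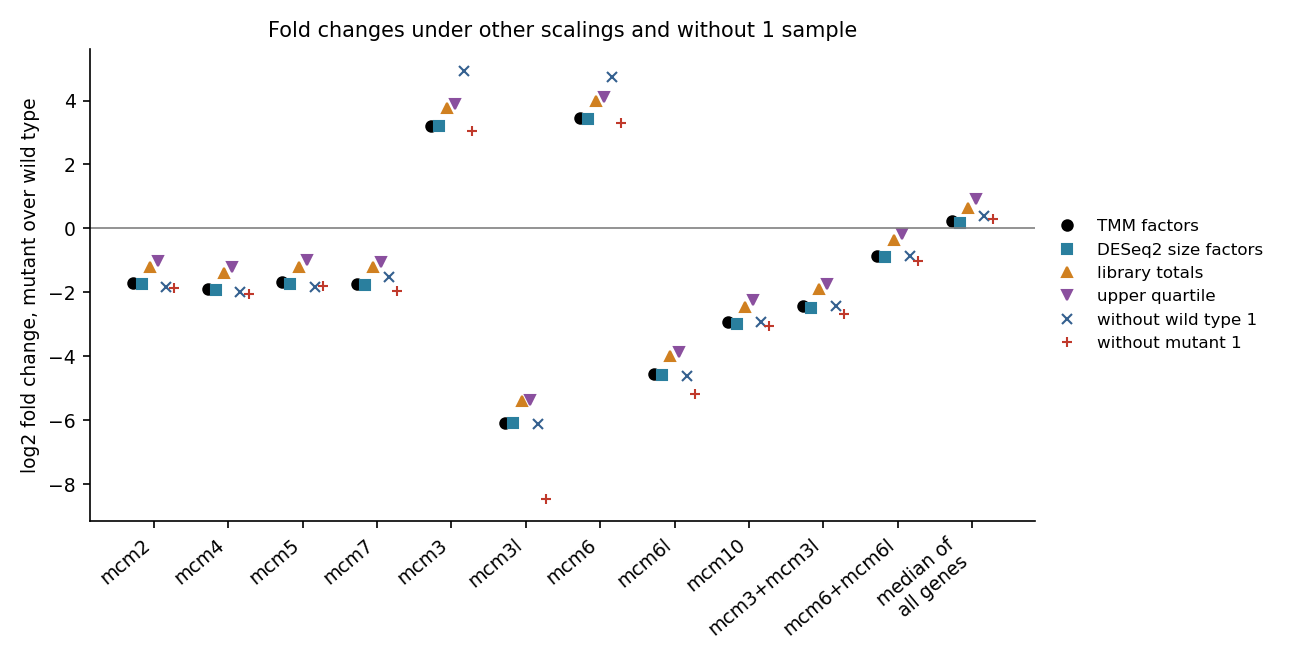
Log2 fold change of mutant over wild-type gonads for the 9 MCM genes, the 2 pair sums and the median of all genes tested, under 4 scalings and without wild-type or mutant replicate 1. Every symbol of *mcm3* and *mcm6* is above 0 and every other MCM symbol below it, while the sum of *mcm6* and *mcm6l* comes within 0.17 of 0 with upper-quartile factors.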

How the data were processed

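The authors extracted RNA with a column kit, made stranded libraries depleted of ribosomal RNA and deposited raw counts per Ensembl gene (whole numbers, no normalization) for 6 samples. The submitters' processing notes name Trim Galore 0.5.0, Bowtie2 2.3.4.1, featureCounts from Subread 1.6.2, DESeq2 1.18.1, R 3.4.1 and the build GRCz11, without roles. The annotation release, the strand setting and the handling of reads with several matches are not given in the sources used here. Coordinates are those of GRCz11 in the study's protein annotations.

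Symbols came from the study's supplementary tables for 6939 genes and otherwise from a table of gene names, and 29409 of 32520 genes had one. The name table calls both MCM6 genes by one symbol, and the supplementary annotations separate them. Genotypes were compared in edgeR 4.0.16 (R 4.3.3) with TMM factors, the quasi-likelihood test (two-sided), default filtering (minimum count 10, minimum total 15) and Benjamini-Hochberg adjustment over all genes at 0.05. Standard errors are the log2 fold change divided by the square root of its F statistic. Alternatives were DESeq2 1.42.0, limma-voom (limma 3.58.1), other scalings and filters, a fold change minimum, a replicate block and leaving out samples. Leaving out replicate 1 of both genotypes was added after seeing the data. Pair sums were fitted as added features. The test was also run on simulated counts in which few genes changed. Here 69.5% of genes were called, so that run does not check the scaling of these data. Summaries used python 3.11.15 with pandas 2.3.3, scipy 1.17.1 (exact intervals) and matplotlib 3.10.9 (plots).

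Replicates are separate pools of gonads, whose counts differed by more than sampling noise (chi-square per degree of freedom of 11.5 to 168). The p-values weigh the genotype difference against the estimated spread between these pools. The members, lists and tests were chosen with earlier results of these data known. Named genes are the members, *mcm8*, *mcm9*, *mcmdc2*, *mcmbp*, *eif4e1b* and the ends and exceptions of each list. Also named are the 3 genes with a symbol most correlated with each of *mcm3*, *mcm3l*, *mcm6* and *mcm6l*. *pcna*, *gins1*, *gins2*, *gins3*, *gsdf*, *amh*, *hsd17b3*, *cyp17a2*, *fshr*, *lhcgr*, *inha* and *hsd3b1* were named after their values were seen. No sequence was used.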

Additional observations from a re-analysis of the deposited data

How the results depend on the processing

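Under the alternatives the members kept their directions. The number called higher was 2 under each scaling, test and filter and 1 to 2 when a sample was left out, with *mcm3* lost without wild-type replicate 2. The number called lower was 5 with library totals alone, where *mcm2* (-1.20) and *mcm7* (-1.21) were not called, and 7 otherwise. Without replicate 1 of both genotypes, 2 were higher and 7 lower. Over all genes, 6437 were lower, against 3740 when library totals alone were used and 4001 under upper-quartile factors, and 5558 to 6666 without samples. Of the genes in all 5 lists, 65 were lower and 1 higher, against 37 lower with library totals alone, 6 higher with upper-quartile factors, and 60 to 65 lower and 0 to 3 higher without samples. The log2 fold change of *mcm8*, 0.44 with all samples, was -0.063 without mutant replicate 3 and 0.75 without mutant replicate 2. Correlations of deviations between samples with one number were 0.12, -0.20 and -0.05. Between samples with unlike numbers they ran from -0.40 to 0.40. With 3 samples in a group these values cannot decide whether a number marks a shared clutch or day. A replicate block gave 2 higher and 7 lower members, with log2 fold changes of 3.92 for *mcm3* and -7.34 for *mcm3l*, and 6625 higher and 5887 lower genes. Shares per kilobase were not run, because no transcript length was used. Counts were lowest, and counting error largest, for *mcm3l* (27 and 9) and *mcm6l* (77 and 128) in mutant replicates 2 and 3 and for *mcm3* (72 and 42) and *mcm6* (136 and 85) in wild-type replicates 2 and 3.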
